A study of Homo sapiens with 6 samples.

Results

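The genes described here encode the machinery that brings new proteins into the endoplasmic reticulum (ER) and ships them on to the Golgi. They were picked by a rule on gene symbols, set with earlier results of these data known, so the counts below describe no blind list. They comprise the signal recognition particle and its receptor, the translocon, signal peptidase, and the oligosaccharyltransferase and TRAP complexes. Also included are the COPII and COPI coats, the KDEL receptors, the p24 and lectin cargo receptors and SEC22 proteins. TMBIM6 was listed by name with its earlier result known and is part of the counts. Of 8987 genes named by the probes of the array, 57 met the rule, through 75 of 11304 probes with 1 gene symbol. All 57 were measured on all 6 arrays. The values were measured in GM00156, a human cell line of the Coriell repository whose cell type the labels do not name. RNA of emetine-treated cells was compared with RNA of untreated cells at each of 5 harvests, with 1 two-colour array a harvest. Treated cells had received emetine, an inhibitor of ribosome movement along mRNA, at 100 µg/ml for 10 h, and both cultures then received actinomycin D, an inhibitor of RNA synthesis, at 5 µg/ml. Cells were harvested 0, 10 and 30 min and then 1 and 8 h after that addition. A sixth array, called self-self here, carried RNA of emetine-treated cells of the 0 min harvest in both channels, and its label mentions no actinomycin D.

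Proteins bound for secretion or for membranes carry a signal sequence that the signal recognition particle binds as it leaves the ribosome. The particle docks on its receptor in the ER membrane, the chain enters the lumen through the SEC61 translocon, signal peptidase removes the signal, and oligosaccharyltransferase adds sugar chains. Folded cargo leaves in COPII-coated vesicles, and the COPI coat returns escaped ER residents, which KDEL receptors recognise. Secretory cells depend on this route, and many of its genes are targets of the unfolded protein response.

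Values are log2 ratios between both channels of an array, untreated RNA in Cy5 and emetine-treated RNA in Cy3, and the labels do not settle which is the numerator. A ratio gives no level, so markers of a cell type could not be checked. The sides are therefore called positive and negative, and no direction of change with emetine is given. Equal masses of mRNA were labelled per the labels, so fewer copies per cell cannot be told apart from more of other transcripts. Zero on each array was set by housekeeping genes, so a value is relative to those genes. A shift of the housekeeping genes themselves would move every ratio of an array, and this was not tested. For the 0 min array the labels conflict, since the channels are named treated and untreated but the description speaks of treated against treated. Across the 57 genes, the 0 min array correlated with the other 4 harvests at a Pearson's r of 0.81 to 0.96 and with the self-self array at 0.32. Over all 8725 genes measured on every array, r was 0.69 to 0.90 and 0.22. What RNA the 0 min array carried was not tested. These points share arrays and probes and are not replicates. The robust SD over 8725 genes was 0.42 to 0.88 on the harvest arrays and 0.11 on the self-self array. The central 99% of self-self values, taken as a range of technical noise, ran from -0.28 to 0.43. No harvest has a replicate, and the labels do not say whether harvests came from separate cultures, so p-values measure only the spread of 5 arrays around a line over time. With the dyes as named, untreated RNA was in Cy5 at each harvest. A bias of a probe towards a dye would thus repeat on all 5 arrays, and no p-value here measures it.

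Most of the machinery lay on the negative side. The mean over the 5 harvests passed an adjusted p of 0.05 on the negative side for 40 of the 57 genes, where 25.3% of all 8748 genes did, and on the positive side for 5, where 37% did (limma with Benjamini-Hochberg adjustment over all genes). The other 12 genes did not pass, with means from -0.27 to 0.27. A mean of -1 or lower that passed was found for 23 of the 57, against 4.74% of all genes, and a mean of 1 or higher that passed for 2, against 9.52%. The median mean was -0.88 over the 57 genes and 0.14 over all genes. In the order of the harvests the median of the 57 was -0.51, -1.17, -0.85, -0.63 and -0.97, and it was -0.06 on the self-self array. Below that median lay 9.40%, 8.91%, 10.2%, 10.8% and 9.43% of all genes in the same order, and 25.4% on the self-self array. All 5 arrays were negative for 40 of the 57 genes, against 25.4% of all genes.

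**Figure D1:**
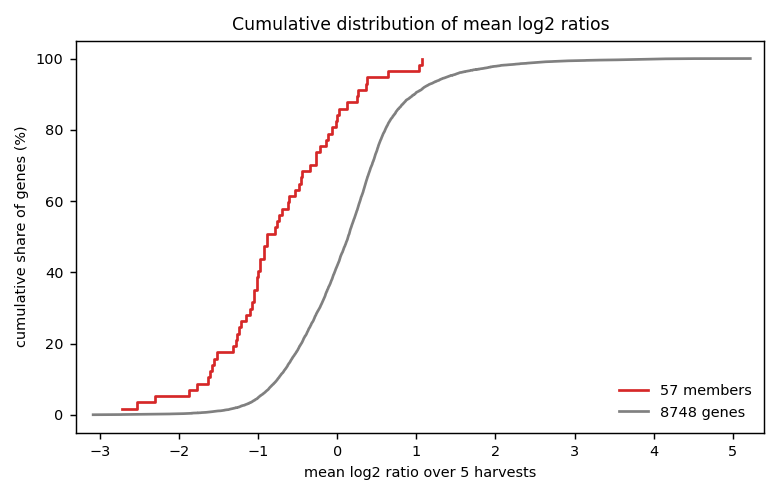
Cumulative share of genes (y axis, %) by mean log2 ratio over 5 harvests (x axis) for the 57 members (red) and 8748 genes (grey). The curve of the members lies to the left, with a median of -0.88 against 0.14.

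Single harvests can be set against the self-self range without a test. In harvest order 36, 43, 39, 37 and 40 of the 57 genes lay below it, where 21.4%, 33.7%, 29.8%, 26.7% and 28.9% of all genes did. Above it lay 2, 4, 3, 3 and 6 genes, where 20.3%, 35.9%, 35.9%, 21.6% and 36.6% of all genes did. At every harvest 29 genes lay below the range, against 13.1% of all genes, and 2, SEC24A and SPCS2, lay above it, against 12.2%. Genes with several probes are counted among the 29 by the average of their probes, and the others by 1 probe. At 0 min a probe of DDOST (0.46), of TMED10 (0.16) and of TMED3 (-0.15) was not below the range. The same TMED3 probe was not below it at 1 h either (-0.25). The 29 also include STT3B and SEC61B, which lay below it on the self-self array as well. The self-self array itself was also fitted as the level to compare with, a single array assumed to vary like the harvests. The median difference from it was -0.71 over the 57 genes and 0.096 over all 8725 genes. With a single array at that level its own spread is unknown, so no call on a gene is drawn from this fit. In that fit 0.0115% of all genes passed on the negative side. The counts on the negative and the positive side of the 57 genes depended on the arrays and settings as follows. They were 43 and 3 with arrays centred on their medians (30.6% and 29% of all genes) and 42 and 7 with arrays scaled to equal spread (28.1% and 40.5%). They were 39 and 4 without the 0 min array (25.1% and 36.6%), 38 and 4 without the 10 min array (21.1% and 30.9%), and 38 and 3 without the 30 min array (20.2% and 28%). They were 40 and 5 without the 1 h array (24.2% and 36.8%) and 39 and 2 without the 8 h array (22.8% and 30.2%). With time as rank they were 40 and 5 (24.3% and 34.8%), and without a slope 40 and 3 (23.8% and 34%). With repeated values kept (24.2% and 37.2%) or probes fitted as probes (26.4% and 38.2%) they were 40 and 5.

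**Figure D2:**
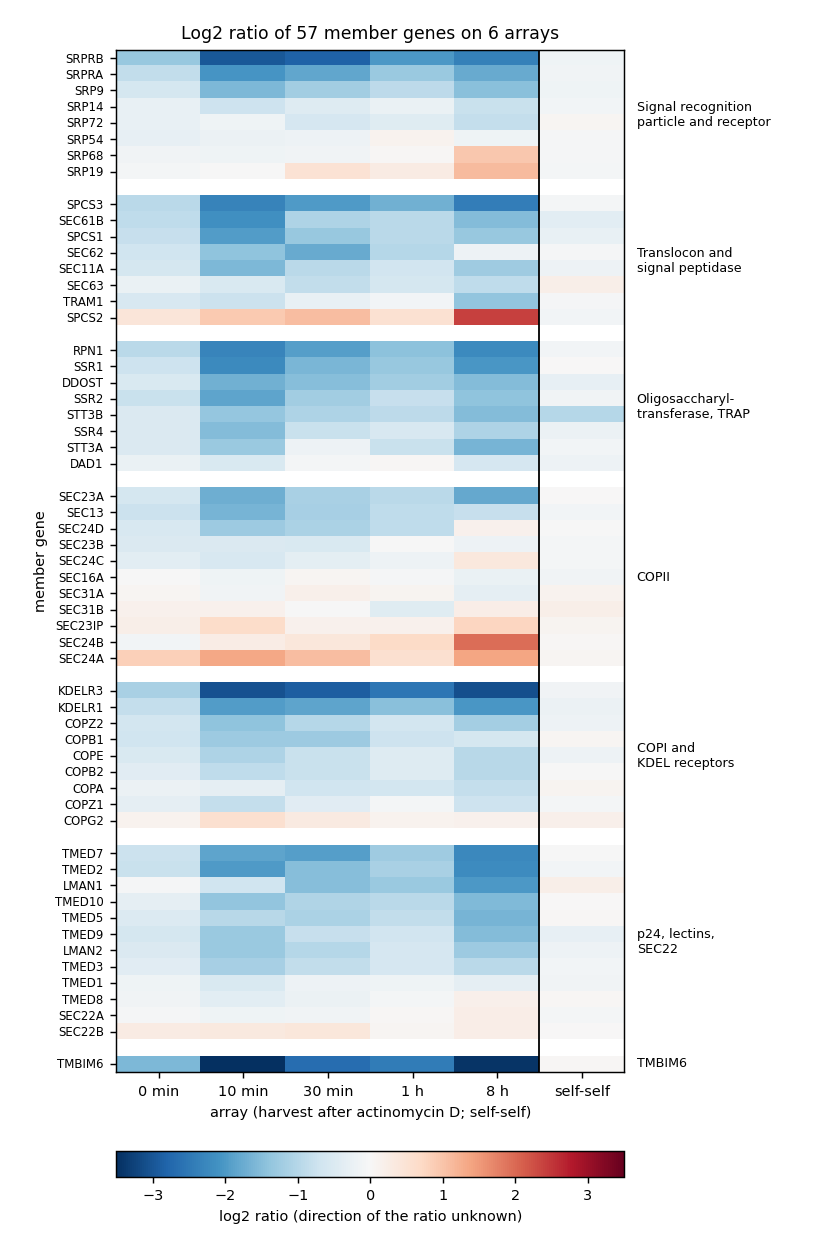
Log2 ratio (colour, blue negative, red positive) of the 57 members (rows, by role) on the 5 harvest arrays and the self-self array (columns). Most rows are blue, SPCS2 and SEC24A are red at every harvest, and STT3B is blue on the self-self array as well.

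The promoters of the genes were searched for letters of the unfolded protein response, since many members are known targets of its regulators. Of the 57 genes, 50 had promoters in a RefSeq table of the build GRCh38.p14, and 250 bases before each listed start were read on both strands. The letters TGACGTGG, a site known as UPRE that binds XBP1 and ATF6, stood before 7 of the 50 genes (14%), against 1.12% of 7138 measured genes. The longer elements ERSE and ERSE-II of the same response stood before 0 of the 50, against 0.112% and 0.126% of measured genes. The short letters CCACG, which also lie within the UPRE on its other strand, stood before 74% against 50.5%, and CCAAT before 48% against 42.2%. The 7 genes with UPRE letters lay on both sides, with negative means for KDELR3, SEC62, COPB1, SSR4 and COPB2 and positive means for SEC24A and SRP19. A match is a description of letters, not of binding. The 250 bases before the start are shown for the 4 of them with the largest mean in size, as the clearest cases on either side, in lower case with the UPRE letters of either strand in capitals.
KDELR3, chr22:38467846-38468095, plus strand: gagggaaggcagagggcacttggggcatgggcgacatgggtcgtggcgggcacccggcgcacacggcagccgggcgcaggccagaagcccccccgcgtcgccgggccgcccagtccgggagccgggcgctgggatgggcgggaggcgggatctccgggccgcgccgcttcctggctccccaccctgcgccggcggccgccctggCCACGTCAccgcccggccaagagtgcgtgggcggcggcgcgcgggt
SEC24A, chr5:134648535-134648784, plus strand: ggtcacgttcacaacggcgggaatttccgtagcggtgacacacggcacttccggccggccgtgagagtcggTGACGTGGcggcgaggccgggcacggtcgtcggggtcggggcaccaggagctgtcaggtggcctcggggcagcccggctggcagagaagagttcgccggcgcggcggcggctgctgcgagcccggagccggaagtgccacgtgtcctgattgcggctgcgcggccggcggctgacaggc
SEC62, chr3:169966557-169966806, plus strand: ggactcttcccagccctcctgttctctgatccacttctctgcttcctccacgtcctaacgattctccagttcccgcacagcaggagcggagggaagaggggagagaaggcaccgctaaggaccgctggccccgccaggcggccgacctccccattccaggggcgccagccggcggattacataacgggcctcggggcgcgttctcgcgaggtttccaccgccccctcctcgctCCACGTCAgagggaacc
COPB1, chr11:14499812-14500061, minus strand: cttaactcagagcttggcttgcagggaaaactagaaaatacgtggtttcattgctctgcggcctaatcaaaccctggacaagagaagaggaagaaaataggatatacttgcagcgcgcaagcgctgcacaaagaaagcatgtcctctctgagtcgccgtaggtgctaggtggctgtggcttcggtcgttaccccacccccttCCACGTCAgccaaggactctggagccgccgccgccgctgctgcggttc
Counted from the start, the letters run from -46 to -39 in KDELR3, -179 to -172 in SEC24A, -17 to -10 in SEC62 and -48 to -41 in COPB1, and in all but SEC24A they are read on the strand opposite to the gene.

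In the signal recognition system, 5 of 8 genes passed with a negative and 1 with a positive mean, where 25.3% and 37% of all genes did. The median mean was -0.47, and both receptor genes had lower means than any gene of the particle. The receptor tethers the particle to the membrane through SRPRB, a membrane-spanning GTPase, and SRPRA, the GTPase that meets the particle. SRPRB was, in the order of the harvests, at -1.32, -2.97, -2.84, -2.01 and -2.35, and at -0.15 on the self-self array. SRPRA was at -0.86, -2.07, -1.81, -1.30 and -1.77, and at -0.13 on the self-self array. Every harvest of both genes lay far below the self-self range, and their means were -2.30 (SE 0.23, 5 arrays, limma adjusted p = 0.000462) and -1.56 (SE 0.17, adjusted p = 0.000464). SRPRB ranked 13th from the lowest among 8748 genes. Of the particle's 6 proteins, the Alu-domain subunit SRP9 had -0.60, -1.58, -1.21, -0.91 and -1.46, and -0.14 on the self-self array, with a mean of -1.15 (SE 0.15). Its partner SRP14 had a mean of -0.49 (SE 0.12) and the scaffold subunit SRP72 one of -0.45 (SE 0.11). All 3 passed, although SRP72 did not without the 8 h array (-0.35, adjusted p = 0.0587). SRP54, which binds the signal sequence, had a mean of -0.14 (adjusted p = 0.299).

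SRP68 and SRP19 had their highest values at 8 h. SRP68, which pairs with SRP72 on the particle's RNA, was at -0.13, -0.14, -0.12, 0.05 and 0.95, and at -0.03 on the self-self array, so that it left the self-self range at 8 h only. SRP19, which SRP54 needs to join the RNA, was at -0.06, -0.02, 0.50, 0.29 and 1.10, against -0.08 on the self-self array, and was above the range at 30 min and 8 h. The mean of SRP19 was 0.36 (SE 0.11, limma adjusted p = 0.0229) and that of SRP68 was 0.12 (adjusted p = 0.393). SRP19 did not pass without the 8 h array (0.18, adjusted p = 0.292), without the 30 min array (0.33, adjusted p = 0.0923) or with centred arrays (0.25, adjusted p = 0.0831), nor without a slope (adjusted p = 0.112). Without the 8 h array SRP68 had a mean of -0.09.

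Of 8 translocon and signal peptidase genes, 7 passed on the negative and 1 on the positive side, where 25.3% and 37% of all genes did. The median mean was -1.01. SEC61B, the small subunit of the translocon pore, was at -0.89, -2.14, -1.08, -0.95 and -1.53, and at -0.37 on the self-self array, itself below the range. Its mean was -1.32 (SE 0.19, limma adjusted p = 0.000929) and lay 0.94 below its self-self value. SEC62 and SEC63 assist the translocon in taking up finished chains, and SEC63 also recruits the chaperone of the lumen. SEC62 was at -0.71, -1.42, -1.77, -0.99 and -0.18, against -0.04 on the self-self array, returning to within the range at 8 h, with a mean of -1.01 (SE 0.19). SEC63 had a mean of -0.62 (SE 0.11) and TRAM1, a membrane protein beside the translocon that helps signal sequences enter, one of -0.62 (SE 0.17). TRAM1 had its largest value at 8 h, -1.37, and was within the range at 30 min and 1 h, at -0.27 and -0.10.

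Signal peptidase, the enzyme that cuts off signal sequences, had genes on opposite sides. Its subunit SPCS3 was at -0.93, -2.32, -1.99, -1.69 and -2.41, and at -0.06 on the self-self array, with a mean of -1.87 (SE 0.18, limma adjusted p = 0.000462). SPCS1 had a mean of -1.26 (SE 0.17), and SEC11A, a catalytic subunit, was at -0.61, -1.57, -0.95, -0.66 and -1.25, against -0.19 on the self-self array, with a mean of -1.01 (SE 0.16). These 3 genes were below the self-self range at every harvest. SPCS2, an accessory subunit of the same enzyme, was at 0.43, 0.92, 1.08, 0.54 and 2.39, and at -0.10 on the self-self array. It was above the range at every harvest, at 0 min by a narrow margin, and its mean of 1.07 (SE 0.16, adjusted p = 0.00104) was the highest of the 57. SPCS2 has 1 probe, so no second probe of the gene bears on this value. In all, 47 of the 57 genes have 1 probe, among them TMBIM6, KDELR3, SRPRB, SPCS3 and RPN1 on the negative side.

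**Figure D3:**
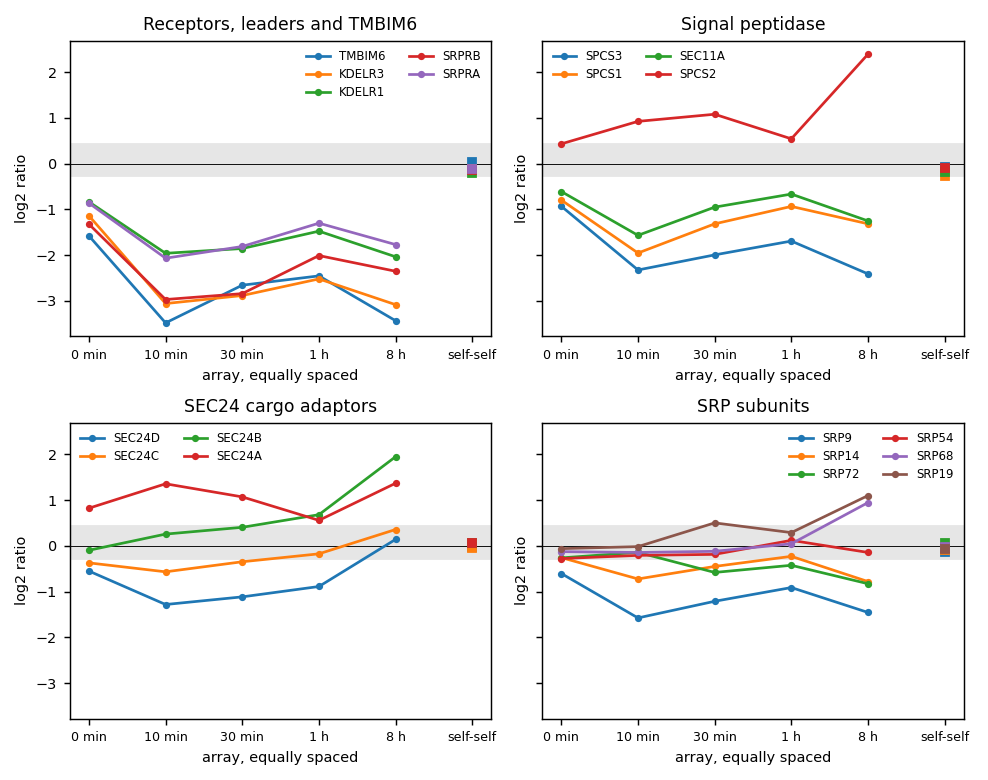
Log2 ratio (y axis) at 5 harvests (points joined by lines, equally spaced) and on the self-self array (squares) for 4 sets of genes, with the central 99% of self-self values in grey. TMBIM6, the KDEL receptors and the receptor of the signal recognition particle stay far below the range, SPCS2 lies opposite the other signal peptidase genes, and SEC24B reaches 1.95 at 8 h.

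Oligosaccharyltransferase transfers sugar chains to asparagines of entering proteins, and TRAP is a complex at the translocon. Of their 8 genes 7 passed, all on the negative side, where 25.3% of all genes did. The median mean was -1.14. RPN1, a non-catalytic subunit of the transferase, was at -0.94, -2.31, -1.92, -1.42 and -2.24, and at -0.11 on the self-self array, with a mean of -1.77 (SE 0.19, limma adjusted p = 0.000462). The TRAP subunit SSR1 was at -0.72, -2.22, -1.60, -1.32 and -2.03, and at 0.01 on the self-self array, with a mean of -1.58 (SE 0.19). RPN1 and SSR1 were both well below the self-self range at every harvest. The probes of SSR1 were at -1.89 and -1.27. SSR2 and SSR4, also of TRAP, had means of -1.21 (SE 0.17) and -0.89 (SE 0.16). DDOST, a further subunit of the transferase, had a mean of -1.28 (SE 0.16) over 9 probes of 1 accession. Its probe means ran from -1.40 to -0.85, and all 9 passed in a fit of probes. At 0 min the probe with the mean of -0.85 was at 0.46, while the others were negative. The 9 values share 1 accession and the same arrays and do not replicate the comparison. DAD1, the small subunit, had a mean of -0.27 and did not pass (adjusted p = 0.105), although it did with centred arrays (-0.39, adjusted p = 0.0368).

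STT3A and STT3B are alternative catalytic subunits of the transferase, STT3A acting as chains enter and STT3B also afterwards. STT3A was at -0.52, -1.31, -0.19, -0.78 and -1.63, and at -0.09 on the self-self array, with a mean of -0.88 (SE 0.18, limma adjusted p = 0.00399). STT3B was at -0.51, -1.35, -1.09, -0.91 and -1.53, and at -1.003 on the self-self array, with a mean of -1.07 (SE 0.14, adjusted p = 0.000565). The self-self value of STT3B was the lowest of the 57 genes, so its mean lay only 0.07 below it, while the mean of STT3A lay 0.79 below its own. The mean of STT3B thus cannot be told apart from what its probe gave with the same RNA in both channels. Its single harvests lay on both sides of that value, from -1.53 at 8 h to -0.51 at 0 min.

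COPII genes lay on both sides, as all genes did. Of 11 genes 4 passed on the negative side (36.4%, against 25.3% of all genes) and 3 on the positive side (27.3%, against 37%), and their median mean was -0.07. Outside COPII, 36 of 46 genes passed on the negative side. SEC23A, which forms the inner coat with SEC24, was at -0.63, -1.70, -1.15, -0.94 and -1.79, and at 0.00 on the self-self array, with a mean of -1.24 (SE 0.16, limma adjusted p = 0.000617) over 2 probes at -1.39 and -1.09. SEC13, a part of the outer coat cage and of the nuclear pore, had a mean of -1.05 (SE 0.15). Its cage partners SEC31A and SEC31B were at -0.02 (adjusted p = 0.878) and 0.02 (adjusted p = 0.893), and SEC16A, the scaffold of ER exit sites, at -0.07 (adjusted p = 0.574). SEC23B passed at -0.35 (SE 0.12, adjusted p = 0.0300) and SEC23IP, which binds SEC23 at exit sites, at 0.38 (SE 0.13, adjusted p = 0.0334). Neither call held without the 0, 10 or 30 min array, where SEC23B had adjusted p-values of 0.0822, 0.0856 and 0.125 and SEC23IP of 0.0539, 0.0765 and 0.0543. SEC23IP did not pass without the 8 h array (0.29, adjusted p = 0.127) or with centred arrays (0.26, adjusted p = 0.107).

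The SEC24 proteins, which pick cargo for COPII vesicles, fell on different sides. SEC24A was at 0.82, 1.36, 1.07, 0.56 and 1.37, and at 0.06 on the self-self array, with a mean of 1.04 (SE 0.15, limma adjusted p = 0.000814) and 2 probes at 0.98 and 1.09. SEC24B was at -0.10, 0.26, 0.41, 0.68 and 1.95, and at 0.05 on the self-self array. It started within the self-self range and was above it from 1 h on, with a mean of 0.64 (SE 0.11, adjusted p = 0.00179) that was 0.31 without the 8 h array (adjusted p = 0.0717) and did not pass without a slope (adjusted p = 0.0689). SEC24C was at -0.37, -0.57, -0.35, -0.17 and 0.36, and at -0.06 on the self-self array, with a mean of -0.22 (SE 0.11, adjusted p = 0.114). It passed without the 8 h array (-0.37, adjusted p = 0.0496) and with centred (-0.34, adjusted p = 0.0322) or scaled arrays (-0.26, adjusted p = 0.0173). SEC24D was at -0.55, -1.28, -1.12, -0.89 and 0.14, and at -0.02 on the self-self array, with a mean of -0.74 (SE 0.17, adjusted p = 0.00598). Both SEC24C and SEC24D were negative at the first 4 harvests and above 0 at 8 h.

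COPI and KDEL receptor genes passed on the negative side in 8 of 9 cases, where 25.3% of all genes did, with a median mean of -0.76. The receptors bind the KDEL tail of ER residents in the Golgi and carry them back in COPI vesicles. KDELR3 was at -1.14, -3.06, -2.88, -2.52 and -3.08, and at -0.11 on the self-self array, with a mean of -2.54 (SE 0.23, limma adjusted p = 0.000462), the ninth lowest of 8748 genes. KDELR1 was at -0.83, -1.96, -1.86, -1.48 and -2.04, and at -0.21 on the self-self array, with a mean of -1.63 (SE 0.16). Both receptors were below the self-self range at every harvest and had lower means than any measured subunit of the coat. KDELR3 is also among the genes with UPRE letters shown above.

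The coat subunits had means from -0.98 to 0.25. Its zeta subunit COPZ2 was at -0.64, -1.42, -0.99, -0.64 and -1.20, and at -0.18 on the self-self array, with a mean of -0.98 (SE 0.15, limma adjusted p = 0.000999). COPB1, the beta subunit, was at -0.70, -1.28, -1.28, -0.74 and -0.61, against 0.07 on the self-self array, and had a mean of -0.92 (SE 0.14). The epsilon subunit COPE, the beta' subunit COPB2 and the alpha subunit COPA had means of -0.76 (SE 0.13), -0.70 (SE 0.12) and -0.54 (SE 0.11). COPZ1, the other zeta subunit, passed at -0.46 (SE 0.14, adjusted p = 0.0211) but not without the 10 min (-0.37, adjusted p = 0.0574), 30 min (-0.48, adjusted p = 0.0524) or 8 h array (-0.40, adjusted p = 0.0628). COPG2, a gamma subunit, was the only gene of the group above 0, at 0.25 (SE 0.12), and did not pass (adjusted p = 0.0896), although it did with scaled arrays (0.24, adjusted p = 0.0334).

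Cargo receptors of the p24 family, named TMED, and the lectins LMAN1 and LMAN2 sort cargo in both directions between ER and Golgi. Together with the SEC22 proteins they had 8 of 12 genes past the threshold, all negative, where 25.3% of all genes passed on that side. The median mean was -0.96. TMED7 was at -0.75, -1.85, -1.93, -1.24 and -2.25, and at -0.01 on the self-self array, with a mean of -1.61 (SE 0.17, limma adjusted p = 0.000462). TMED2 was at -0.77, -1.97, -1.48, -1.14 and -2.21, and at -0.08 on the self-self array, with a mean of -1.52 (SE 0.18). TMED10, the usual partner of TMED2 in p24 complexes, had a mean of -1.05 (SE 0.15), but its 2 probes, of different accessions, were at -1.77 and -0.32. TMED5, TMED9 and TMED3 had means of -1.002 (SE 0.12), -0.98 (SE 0.14) and -0.79 (SE 0.14), the last with probes at -1.14 and -0.44. TMED1 and TMED8 did not pass, at -0.27 (adjusted p = 0.0708) and -0.11 (adjusted p = 0.386). TMED1 did pass with centred (-0.38, adjusted p = 0.0214) or scaled arrays (-0.26, adjusted p = 0.0223).

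The lectins had similar means and different courses, a difference that was not tested. LMAN1, which carries glycoproteins such as clotting factors out of the ER, was at -0.05, -0.69, -1.50, -1.29 and -2.02, and at 0.21 on the self-self array, with a mean of -1.11 (SE 0.14, limma adjusted p = 0.000555). It was within the self-self range at 0 min and farthest from it at 8 h. LMAN2, a related lectin, was at -0.51, -1.29, -0.996, -0.59 and -1.27, and at -0.19 on the self-self array, with a mean of -0.93 (SE 0.15), and was below the range at every harvest. The SNARE protein SEC22B, which fuses vesicles between ER and Golgi, had a mean of 0.27 (SE 0.11, adjusted p = 0.0619) that passed with scaled arrays (adjusted p = 0.0219), and its relative SEC22A one of -0.01 (adjusted p = 0.947).

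TMBIM6, a membrane protein of the ER that restrains cell death and calcium release, had the lowest mean of the 57 genes. Its values were -1.58, -3.48, -2.66, -2.45 and -3.43, and 0.04 on the self-self array. It was the lowest of the 57 genes at 0 min, 10 min and 8 h and was above KDELR3 at 30 min and 1 h and above SRPRB at 30 min, and its mean of -2.72 (SE 0.23, limma adjusted p = 0.000462) was the sixth lowest of all 8748 genes. As TMBIM6 entered the list by name with its value known, this place is a description. Of its 5 relatives on a list of related genes 4 were measured. TMBIM4 passed on the negative side at -0.54 (SE 0.12, adjusted p = 0.00513) and GRINA on the positive side at 0.36 (SE 0.11, adjusted p = 0.0214), while FAIM2 and GHITM were at 0.18 and -0.05 and did not pass. GRINA did not pass with centred arrays (0.25, adjusted p = 0.0807), without the 30 min array (0.31, adjusted p = 0.104) or without the 8 h array (0.35, adjusted p = 0.0621).

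**Figure D4:**
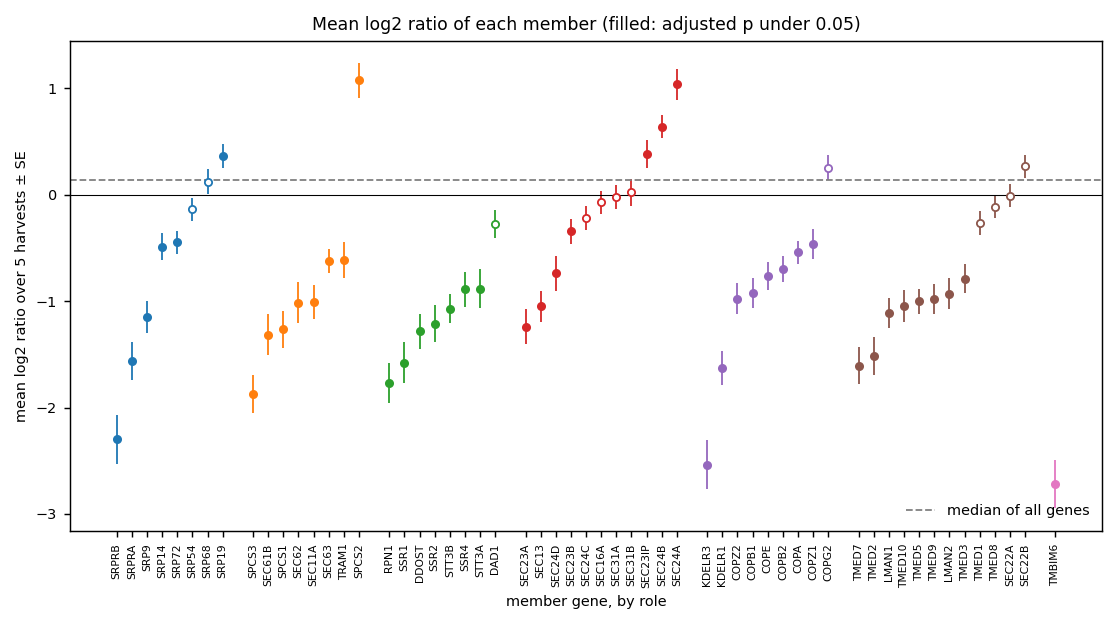
Mean log2 ratio over 5 harvests with its SE from limma (y axis) for each of the 57 members, by role (x axis and colour); filled points passed an adjusted p of 0.05, and the dashed line is the median of all genes at 0.14. TMBIM6, KDELR3 and SRPRB are lowest, and SPCS2 and SEC24A are highest.

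The order of harvests in the 40 negative genes is set here beside that of all 2217 genes that passed on the negative side. The value was larger in size at 10 min than at 0 min in 38 of the 40, against 96.1% of the 2217, and smaller at 1 h than at 10 min in 36, against 86.8%. At 8 h 36 exceeded their 0 min value in size, against 79.4%. The 10 min array held the lowest value of 20 genes (56.4% of the 2217) and the 8 h array that of 18 (28.6%), while 30 had their highest value at 0 min (56.3%). The steps between 0 min, 10 min and 1 h were thus near those of all negative genes, and no difference from them was tested. The robust SDs of all genes on these arrays were 0.42, 0.88, 0.76, 0.50 and 0.83 from 0 min to 8 h, and their part in this order was not tested. A trend with time was fitted as a slope on log2(1 + min / 10). No slope of the 57 genes passed an adjusted p of 0.05, and 1 of all 8748 genes did (0.0114%). An unadjusted p under 0.05 was found for 5 members with a positive slope, where 11.2% of all genes had one, and for 2 with a negative slope, where 3.72% did. The 4 members with the smallest p were SEC24B, LMAN1, SPCS2 and SRP19. Their slopes were 0.36 (SE 0.06, limma adjusted p = 0.0747), -0.33 (SE 0.07, adjusted p = 0.108), 0.32 (SE 0.08, adjusted p = 0.131) and 0.21 (SE 0.06, adjusted p = 0.141) per unit of that scale. Without the 1 h array SEC24B, SPCS2 and LMAN1 passed with adjusted p-values of 0.0102, 0.0124 and 0.0326, in a fit where 5.91% of all genes passed. With arrays scaled to equal spread SEC24B was the 1 member that passed (slope 0.32, adjusted p = 0.0432), in a fit where 52 of all genes did (0.594%). From 0 min to 8 h the log ratio of SEC24B differed by 2.05, that of SPCS2 by 1.96 and that of LMAN1 by -1.97.

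Related genes were compared within each array, as the difference of their log ratios, in 13 pairs. With 5 arrays the exact two-sided sign-flip permutation test cannot give a p below 0.0625, so no pair could pass 0.05. The difference had the same sign on all 5 arrays in 9 pairs, each with the smallest possible exact p of 0.0625 (0.0903 after Benjamini-Hochberg adjustment over the 13 pairs). Of all pairs of the 8748 genes 61.2% kept 1 sign, so the count of pairs is near that of genes in general. SEC24A minus SEC24D was 1.77 ± 0.61 and SEC24B minus SEC24D 1.38 ± 0.53 (SD over 5 arrays). SEC24A minus SEC24C was 1.26 ± 0.45, SEC24B minus SEC24C 0.86 ± 0.47 and SEC24C minus SEC24D 0.52 ± 0.29. Of the 6 SEC24 pairs, which share 4 genes, 5 kept 1 sign, the exception being SEC24A minus SEC24B, at 0.40 ± 0.72 and positive on 3 of 5 arrays. KDELR1 minus KDELR3 was 0.90 ± 0.34, SEC23A minus SEC23B -0.90 ± 0.57, COPZ1 minus COPZ2 0.52 ± 0.12 and SEC22A minus SEC22B -0.28 ± 0.25. No order was found for LMAN1 and LMAN2 (-0.18 ± 0.66), STT3A and STT3B (0.19 ± 0.41) or SEC31A and SEC31B (-0.04 ± 0.42), whose exact p-values were 0.500, 0.375 and 0.8125. On the self-self array the difference was 0.91 for STT3A minus STT3B, larger than at the harvests, and within 0.13 of 0 in the 9 pairs.

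**Figure D5:**
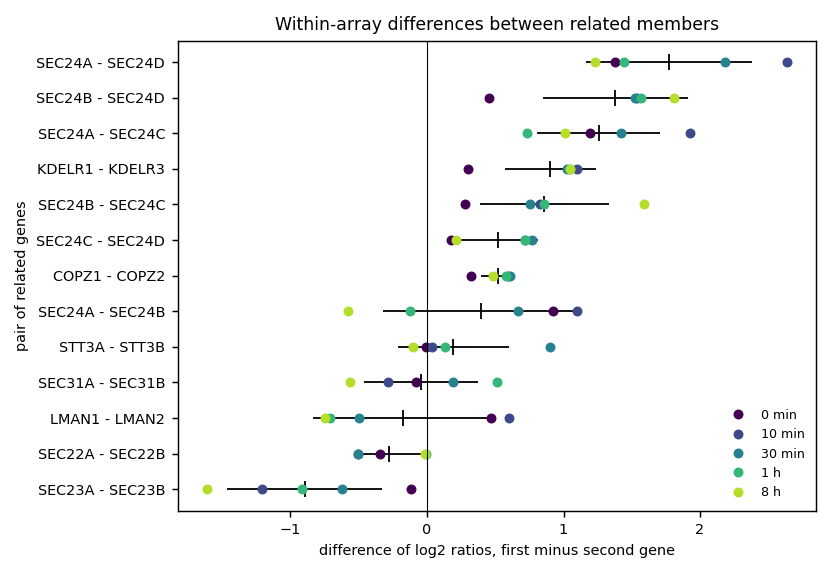
Difference of log2 ratios (x axis, first minus second gene) within each array for 13 pairs of related genes (y axis); points are harvests, ticks and bars the mean and SD over 5 arrays. SEC24A and SEC24B lie above SEC24C and SEC24D on every array, and KDELR1 above KDELR3.

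Further genes of the route, outside the symbol rule, were counted from a list of 91 genes, of which 61 were measured. With a negative mean 30 passed, where 25.3% of all genes did, and with a positive mean 11, where 37% did, with 20 not passing, and the median mean was -0.30, against -0.88 for the 57 genes and 0.14 for all genes. By sublist, 11 of 21 COPI, COPII and ERGIC partners, 7 of 15 tethers and SNAREs and 11 of 21 genes of glycosylation and membrane insertion passed on the negative side, and 2, 4 and 4 on the positive side. OSTC, an oligosaccharyltransferase subunit that joins the complex to the translocon, was at -1.05, -2.59, -2.02, -1.61 and -2.62, and at -0.14 on the self-self array, with a mean of -1.98 (SE 0.20, limma adjusted p = 0.000462). CNIH1, a cargo receptor for growth factor precursors, had a mean of -1.42 (SE 0.16), the SNARE YKT6 one of -1.34 (SE 0.12) and the glucosidase MOGS, which trims new sugar chains, one of -1.28 (SE 0.16). On the positive side DPM2, a regulator of the dolichol sugar donor, was at 1.92, 2.44, 2.99, 1.33 and 3.93, and at -0.16 on the self-self array, with a mean of 2.52 (SE 0.27, adjusted p = 0.000462). ARF3, a GTPase related to ARF1, had a mean of 2.33 (SE 0.27), and the SNARE GOSR1 one of 0.79 (SE 0.12). Both means are averages over probes whose values differed. ARF1 itself, the GTPase that recruits COPI, passed on the negative side, at -0.70 (SE 0.11, adjusted p = 0.00143). GET4, of the pathway for tail-anchored proteins, was at 0.78 (SE 0.27, adjusted p = 0.0333) with a harvest value of 2.13 at 10 min, and did not pass without the 10 min array (0.45, adjusted p = 0.0854), without the 0 min array (0.77, adjusted p = 0.0990) or with centred arrays (0.67, adjusted p = 0.0593). The positive count was 5 without the 30 min array (28% of all genes), 6 without the 8 h array (30.2%) and 5 with centred arrays (29%).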

How the data were processed

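The authors deposited a table of log2 ratios, for 14080 probes on 6 arrays. Per the labels, spot intensities were averaged after background subtraction, sample was divided by reference, ratios were normalised within each slide to housekeeping genes, and ratios of low quality were discarded. The scale was found to be base 2, since raising 2 to them gave multiples of 0.0001 (tolerance 0.05 of a step) in 99.5% to 100% of cases. Array medians ran from 0.01 to 0.19, so no centring was found; direction remains unknown. On every array 1 value recurs, at 333 to 534 probes; it was treated as not measured and touched no member probe. The platform annotation names 1 gene for 11304 probes, several for 446 and none for 2330; 11282 matched the gene table, and no member symbol changed.

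Probes measured at all 5 harvests were averaged per gene (8748 genes) and fitted with limma 3.58.1 in R 4.3.3, estimating the mean and a slope over centred log2(1 + min / 10), with 3 residual degrees of freedom, Benjamini-Hochberg adjustment. The fit was also run on simulated data with independent errors of equal spread on every array. The robust SDs of the real arrays differed, so no support for the calls is drawn from that run. Groups follow the labels, with 1 array each; signal over background is not in the table. Members, lists and alternatives were chosen with earlier results of these data known. Genes were named by role: all that passed with a mean of at least 1 in size, then up to 3 a side, genes opposing their group, and 4 by slope; the rest were named after their values were seen. Protein features that were planned are not analysed here. Promoters are RefSeq's.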

Additional observations from a re-analysis of the deposited data

Results flagged for a closer look

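Of the 57 genes, 2 lay outside the central 99% of the self-self array, where the same RNA was in both channels. STT3B was at -1.003 and SEC61B at -0.37 there, against a lower limit of -0.28. The harvest means of these genes were -1.07 and -1.32. The cause was not tested, and each gene has 1 probe.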

How the results depend on the processing

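The 40 genes on the negative side also passed on that side when arrays were centred or scaled to equal spread, when repeated values were kept, when probes were combined by their median or fitted as probes, with time as rank, without a slope, and without the 1 h array; leaving out a single array gave 38 to 40. The positive count of 5 was 3 with centred arrays, 3 without a slope and 2 to 5 with an array left out. With the self-self array as level 0 and 0 passed, and the cause was not tested. The median mean ran from -0.97 to -0.73 with an array left out. Slopes passed for 0 negative and 0 positive genes, for 1 positive with scaled arrays, and for 0 to 1 negative and 0 to 2 positive with an array left out. For the partner list, whose alternatives were added after seeing the data, positive counts were 5 with centred arrays, 5 to 10 with an array left out and 0 against the self-self level, where 0 negative ones passed too. Members outside the self-self range numbered 38, 47, 42, 40 and 46 by harvest, where 41.7%, 69.6%, 65.7%, 48.3% and 65.5% of all genes lay. Beyond 1 log2 unit they were 3, 31, 26, 12 and 31, where 7.36%, 26.2%, 19.9%, 7.13% and 27.2% of all genes lay. A separate limit, with arrays scaled to equal spread, gave 3, 6, 6, 9 and 7, where 3.22%, 1.30%, 2.09%, 1.74% and 2.62% of all genes lay. Such scaling gives the self-self array the same robust SD as the harvests, so low shares are partly built in. Signs turned only for genes near 0: SEC31B at -0.0947 centred, -0.00556 scaled, -0.18 against the self-self level and -0.0320 to 0.13 with an array left out; SEC31A at 0.00631 scaled and -0.0739 to 0.0544 with an array left out; SEC22A at 0.0514 against the self-self level and -0.0666 to 0.0291 with an array left out; SEC16A at 0.0477 against the self-self level; and SRP68 from -0.0863 to 0.19 with an array left out. The causes were not tested. Symbols updated through gene IDs gave the same members. No paired analysis was possible because each harvest has 1 array and the labels carry no replicate numbers. With 1 array a harvest and no spot intensities, neither depth nor signal over background can be weighed.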
